A study of Mus musculus with 10 samples.

Results

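The genes described here are 10 regulators and markers of the epithelial and mesenchymal states, Cdh1, Cdh2, Epcam, Esrp1, Snai1, Snai2, Twist1, Zeb1, Zeb2 and Vim. Each was found on the array through a probe set whose annotation names that gene alone, and where a gene had several the one with the highest mean was to be taken. All 10 were measured, of 18820 genes in all, and each had 1 such probe set. Expression was measured with 1 array for each of 10 mouse teratomas, which are tumours that hold several kinds of tissue and that arise when pluripotent cells grow in a host. All the tumours grew from Vhl-/- embryonic stem cells, which lack the mouse gene and stem from the J1 line of strain Sv/129. The cells were electroporated with a human VHL cDNA and injected under the skin of female nu/nu mice, which lack a normal T cell system. The tumours were frozen when their largest dimension was 1 cm.

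The cDNA was wildtype in 3 tumours, carried R167Q in 3 and carried P81S in 4. Per the labels, P81S tumours resist apoptosis and tumours of the other groups are apoptotic. The VHL protein recognises hypoxia-inducible factors for degradation when oxygen is present, and the series title ties P81S to trichloroethylene. The P81S arrays stand for 2 clones, and which arrays share a clone, the number of clones in the other groups, the promoter of the cDNA and the age of the mice were not given in the sources used here. No array without a cDNA was part of the comparisons. The labels do not say which tumours grew in the same mouse, so p-values measure only the spread between these tumours. The tests also take the 4 P81S tumours as independent although they stand for 2 clones, so their p-values do not reach beyond these clones. A teratoma holds many cell types, so fewer cells of a type and less RNA per cell cannot be told apart in any result below.

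Epithelial cells adhere to each other in sheets through E-cadherin, and in an epithelial-mesenchymal transition they lose these contacts and become motile. Transcription factors of the Snail, Zeb and Twist families drive the change by repressing epithelial genes, and microRNAs of the miR-200 family, with miR-205, hold back Zeb1 and Zeb2 in turn. In the mouse embryo the transition forms the mesoderm and the neural crest. Embryonic stem cells themselves carry E-cadherin and Epcam, and neurons carry N-cadherin, so in a teratoma these genes report on several tissues at once.

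Sequences from RefSeq (build GRCm38.p6) show the elements through which these regulators are known to act. Snail and Zeb proteins bind DNA through zinc fingers at the E2-box, CAGGTG, which reads CACCTG on the opposite strand. Promoters of 5 of the 10 genes were searched, Epcam, Snai1, Twist1, Vim and Zeb2, in 8 windows of 250 bases before an annotated start. Promoters of the other members, Zeb1 and Cdh2 among them, were left out of this account. The 5 genes are thus only a part of the members, and nothing is known here of the boxes of the rest. The E2-box was searched on both strands, and among the searched windows those of Epcam and Snai1 held it. They are shown because Snai1 encodes one of the proteins that recognise the box and Epcam is an epithelial member, with the boxes in capitals and the strand of the gene, here the plus strand, written 5′ to 3′.
Epcam, chr17:87635729-87635978: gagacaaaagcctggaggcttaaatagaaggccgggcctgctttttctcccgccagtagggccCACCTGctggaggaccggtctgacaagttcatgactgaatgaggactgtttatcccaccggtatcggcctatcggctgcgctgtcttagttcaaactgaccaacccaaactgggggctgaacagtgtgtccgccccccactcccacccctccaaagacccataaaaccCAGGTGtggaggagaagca
Snai1, chr2:167537945-167538194: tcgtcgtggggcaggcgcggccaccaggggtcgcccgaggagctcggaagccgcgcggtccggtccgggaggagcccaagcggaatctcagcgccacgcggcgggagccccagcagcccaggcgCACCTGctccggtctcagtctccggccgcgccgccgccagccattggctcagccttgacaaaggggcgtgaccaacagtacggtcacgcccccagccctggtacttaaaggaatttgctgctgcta
The Epcam window held 2 boxes, whose first bases lay 187 and 19 bases before the start. The Snai1 window held 1 box, 126 bases before its start. Of 32851 promoter windows of this length, 17.2% held at least 1 box and 2.06% held at least 2. A match describes these letters and shows no binding, and nothing follows from the windows in which the box was not found.

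The mature microRNAs known to hold back the Zeb genes are shown with their seed, bases 2 to 8, in capitals, because the seed is the part that pairs with the target. They fall into 3 groups by seed, which miR-200a shares with miR-141 and miR-200b with miR-200c.
miR-200a-3p, chr4:156054911-156054932, minus strand: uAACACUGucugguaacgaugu
miR-141-3p, chr6:124717917-124717938, minus strand: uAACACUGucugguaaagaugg
miR-200b-3p, chr4:156055685-156055706, minus strand: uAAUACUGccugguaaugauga
miR-200c-3p, chr6:124718324-124718346, minus strand: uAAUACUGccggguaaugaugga
miR-205-5p, chr1:193507503-193507524, minus strand: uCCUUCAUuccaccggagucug

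All values are deposited log2 expression values, on which a difference of 1 is a 2-fold change, and errors beside means are SDs. Differences carry standard errors and 95% intervals from 1 limma model of all 10 arrays. Genes count as called where the p adjusted over the 18820 genes (Benjamini-Hochberg) was under 0.05. Medians of the arrays over the tested genes lay between 7.95 and 8.07, and 0 arrays were identical to another. P81S replicate 1 stood apart from the rest: its highest correlation with any other array across probe sets was 0.970, against 0.985 to 0.987 for the others. The mean of 11 squamous epithelium markers, such as keratins, was 9.72 in it and 6.04 to 7.38 in the other 9 arrays, and it was the highest array in 11 of those 11 genes. The pluripotent cell list averaged 9.82 to 10.58 in wildtype, 8.91 to 9.96 in R167Q and 6.18 to 7.67 in P81S. Results on P81S are therefore given with and without replicate 1, as one of the tumours left out in turn.

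The plainest changes among the members were in P81S tumours: Snai1 was lower than in wildtype, and Zeb1 and Vim were slightly higher. Cdh1, Epcam and Esrp1 read lower in 3 of the 4 P81S tumours and highest of all arrays in the other, so the groups' means could not be separated. Against wildtype, 3 of the 10 members were called in P81S, where 34.7% of all genes were called. By direction, 2 members were called higher (17.2% of all genes) and 1 lower (17.5%). The arrays of P81S and wildtype did not overlap for 4 members, Snai1, Zeb1, Zeb2 and Vim, and for 40.6% of all genes. These shares are near the background, so the members as a group did not stand out from the genome. The median difference was 0.15 over the members and 0.01 over all genes.

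**Figure D1:**
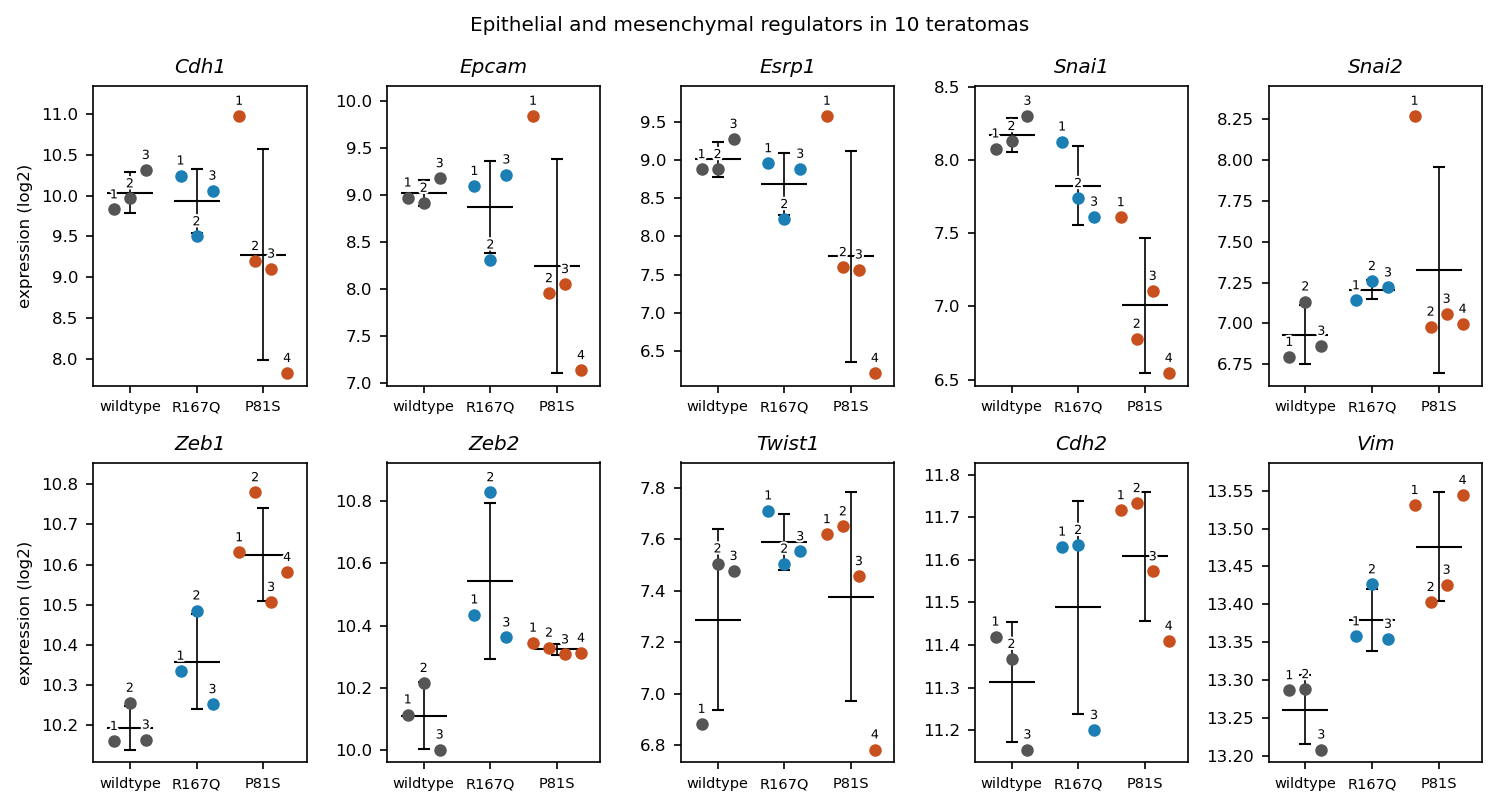
Expression (log2, vertical axis, a separate scale for each gene) of the 10 members in each tumour, grouped as wildtype (n = 3), R167Q (n = 3) and P81S (n = 4); numbers are replicates, horizontal bars are group means and error bars are SDs. P81S replicate 1 is the highest array for Cdh1, Epcam, Esrp1 and Snai2, and Snai1 is lower in each P81S array than in each wildtype array.

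Cdh1 encodes E-cadherin, the adhesion molecule of the adherens junction. It read 9.83, 9.97 and 10.31 in wildtype, 10.25, 9.50 and 10.06 in R167Q, and 10.98, 9.20, 9.10 and 7.82 in P81S replicates 1 to 4. Replicate 1 was above and the other P81S tumours were below each tumour of the other groups. The difference from wildtype was -0.76 ± 0.55 (interval -1.97 to 0.45, 1.69-fold lower, adjusted p = 0.3248), which is within the spread between tumours.

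Epcam, an adhesion protein of epithelia and of pluripotent cells, had the same layout. Wildtype tumours read 8.98, 8.92 and 9.18, R167Q tumours 9.10, 8.32 and 9.22, and P81S tumours 9.84, 7.96, 8.06 and 7.14. Again replicate 1 was the highest of all arrays and the other P81S tumours were the lowest. Epcam differed from wildtype by -0.78 ± 0.50 (interval -1.87 to 0.32, adjusted p = 0.2643), and the difference was not called.

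Esrp1 encodes a splicing factor that keeps the epithelial isoforms of its targets. Its values were 8.88, 8.88 and 9.28 in wildtype, 8.96, 8.23 and 8.89 in R167Q, and 9.58, 7.60, 7.57 and 6.21 in P81S. The P81S range spanned that of both other groups. It differed by -1.27 ± 0.59 from wildtype (interval -2.57 to 0.017, 2.42-fold lower, adjusted p = 0.1209), the widest gap of the members, and was not called.

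Without P81S replicate 1, 6 of 10 members were called in P81S against wildtype, where 36.9% of all genes were, with 2 higher (18.3% of genes) and 4 lower (18.6%). Cdh1 was then at -1.33 ± 0.33 (2.51-fold lower, adjusted p = 0.00963), Epcam at -1.31 ± 0.28 (2.47-fold, adjusted p = 0.003796) and Esrp1 at -1.89 ± 0.35 (3.70-fold, adjusted p = 0.001665). Replicate 1 was the highest array in all 3 genes, so leaving it out removes the value that opposed the fall and adds no independent support. Leaving out P81S replicate 4, which was the lowest array in all 3, brought the differences to -0.28 for Cdh1, -0.41 for Epcam and -0.77 for Esrp1, none of them called. Whether these genes fell in P81S tumours thus turned on which tumours were counted.

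Cell type markers also differed between the P81S tumours. Squamous epithelium markers were high in P81S replicate 1, as given above, and the mean of 12 glandular and gut epithelium markers was 9.83 there, against 7.75 to 8.49 in the other P81S tumours, 8.16 to 8.26 in wildtype and 8.16 to 8.95 in R167Q. The squamous and glandular means were lower in replicate 2 (6.04 and 7.75) than in replicate 4 (6.30 and 7.80), which was lowest in Cdh1, Epcam and Esrp1. Lists of epithelial junction genes and identity regulators, described below, had their highest P81S means in replicate 1 (9.16 and 8.77). Their lowest were in replicate 4 (7.70 and 6.81). Of 12 pluripotency genes, which stem cells express beside Cdh1 and Epcam, 11 were called lower in P81S than in wildtype and 0 higher. Of all genes, 17.5% were called lower. The pluripotency mean was lowest, 6.18, in replicate 4, and it was 7.38 in replicate 1 and 7.67 in replicate 2. Cdh1 lies on chromosome 8, of which the 518 genes with a mean above the median gene's were taken. Their median was 0.13 to 0.19 above the mean of the other groups' arrays in each P81S tumour. In the other tumours it was from -0.09 to 0.08. The part of these cell types and of the chromosome in the values of Cdh1, Epcam and Esrp1 was not tested.

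**Figure D2:**
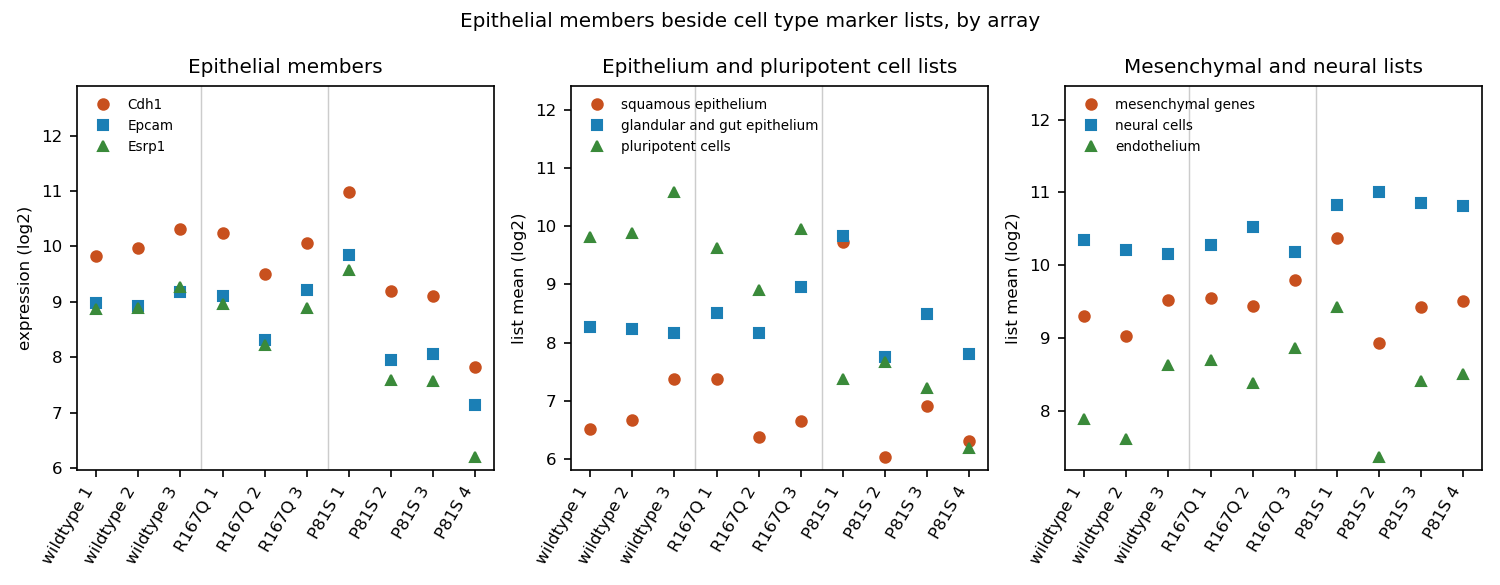
Each array's log2 value of Cdh1, Epcam and Esrp1 (left) beside the mean log2 value of marker lists for epithelia and pluripotent cells (middle) and for mesenchymal, neural and endothelial cells (right), in wildtype, R167Q and P81S tumours. P81S replicate 1 is high in the epithelial members and in the squamous list (9.72), while the pluripotent list is at 7.67 or below in all 4 P81S tumours.

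The measure of likeness between genes was the root mean square difference of their log2 profiles over the 10 arrays, each centred on its own mean. The genes most like Cdh1 were Epcam (0.17), Esrp1 (0.23) and Mpzl2 (0.23), which encodes a junction protein of epithelia, with a spread of Cdh1 itself of 0.82. Those most like Epcam were the desmosomal cadherin gene Dsg2 (0.16), Cdh1 (0.17) and Ifitm1 (0.18), an interferon-induced membrane protein gene. Of all the genes tested, the other epithelial members were those nearest to Cdh1.

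Snai1 encodes Snail, the zinc finger repressor of Cdh1. It read 8.08, 8.13 and 8.30 in wildtype, 8.12, 7.74 and 7.61 in R167Q, and 7.61, 6.78, 7.11 and 6.54 in P81S. Each P81S tumour was below each wildtype tumour, and the P81S and R167Q groups met at 7.61 without overlapping. The fall against wildtype was called, at -1.16 ± 0.23 (2.23-fold lower, adjusted p = 0.002917). The mean of Snai1 lies below the median gene's, so it was not tested where dim genes were left out, and with signal over background unknown its fold is that of the deposited values only. Without P81S replicate 1 it was -1.36 ± 0.18 (adjusted p = 0.0003109). In P81S replicates 2 to 4, Snai1 and its target Cdh1 were both below each wildtype and R167Q tumour.

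Snai2 encodes Slug, a relative of Snail that marks the neural crest. Its values were 6.79, 7.13 and 6.86 in wildtype, 7.14, 7.26 and 7.22 in R167Q, and 8.27, 6.98, 7.06 and 6.997 in P81S. Replicate 1 was the only P81S tumour outside the range of the other groups. The difference of 0.40 ± 0.28 from wildtype (adjusted p = 0.322) was not called, and it was 0.08 without replicate 1. Twist1, a helix-loop-helix factor of the mesoderm, ranged from 6.88 to 7.51 in wildtype, 7.51 to 7.71 in R167Q and 6.78 to 7.65 in P81S. Its ranges in wildtype and P81S overlapped, with a difference of 0.09 ± 0.23 (adjusted p = 0.8076).

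Zeb1 encodes a zinc finger and homeodomain repressor that is also made in neural progenitors. It read 10.16, 10.26 and 10.16 in wildtype, 10.34, 10.49 and 10.25 in R167Q, and 10.63, 10.78, 10.51 and 10.58 in P81S. Each P81S tumour was above each tumour of both other groups. The rise over wildtype was called, at 0.43 ± 0.09 (1.35-fold, adjusted p = 0.004281), and it was as large without replicate 1, at 0.43 (adjusted p = 0.007715). Zeb2, its paralogue, read 10.11, 10.21 and 10.0004 in wildtype, 10.44, 10.83 and 10.36 in R167Q, and 10.34, 10.33, 10.31 and 10.31 in P81S. Wildtype was lowest and R167Q highest without overlap, but P81S differed from wildtype by 0.21 ± 0.11 and the test was not passed (adjusted p = 0.1807). A further probe set, which names Zeb2 with its antisense gene Zeb2os, read 6.72 to 7.32 and was not tested.

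Vim and Cdh2 are the members that encode a filament protein and a cadherin of mesenchymal cells. Vim, the intermediate filament protein vimentin of mesenchymal cells and of neural progenitors, read 13.29, 13.29 and 13.21 in wildtype, 13.36, 13.43 and 13.35 in R167Q, and 13.53, 13.40, 13.43 and 13.54 in P81S. Each P81S tumour was above each wildtype tumour, and the rise was called, at 0.22 ± 0.06 (1.16-fold, adjusted p = 0.01219). It was 0.20 without P81S replicate 1 (adjusted p = 0.03118), and without wildtype replicate 3 it was 0.19 and no longer called (adjusted p = 0.05433). Cdh2 encodes N-cadherin, the cadherin of neural and mesenchymal cells. It read 11.42, 11.37 and 11.15 in wildtype, 11.63, 11.64 and 11.20 in R167Q, and 11.72, 11.73, 11.57 and 11.41 in P81S, with overlapping groups. Its difference of 0.29 ± 0.13 was not called (adjusted p = 0.0976), while without R167Q replicate 3, whose group shares in the model's spread, the same difference was called (adjusted p = 0.04552).

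Zeb1, Cdh2 and Vim are also genes of neural tissue, and part of the neural markers were called higher in P81S. Of 12 measured, 7 were called higher than in wildtype, where 17.2% of all genes were, and 1, Sox3, lower. The 7 were the neuronal genes Map2, Elavl4, Stmn2, Snap25, Syp, Ncam1 and Gap43. The 4 not called were Sox1, Nes, Pax6 and Dcx, so the rise was not seen across the whole list. The wildtype tumours had list means of 10.16 to 10.35, R167Q tumours of 10.17 to 10.52 and P81S tumours of 10.81 to 11.001. The part of neural tissue in the values of Zeb1, Cdh2 and Vim was not tested. The profiles most like that of Cdh2 were Sort1, Gtf2i and Dlg5, all at 0.06. Those nearest to Vim were Bsg (0.04), Serinc3 (0.04) and Actb (0.05), and to Zeb2 Gapt (0.12), Cald1 (0.13) and Alx1 (0.13). As 292 genes lay within 0.1 of Vim and 27 within 0.1 of Cdh2, likeness says little for genes as flat as these.

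**Figure D3:**
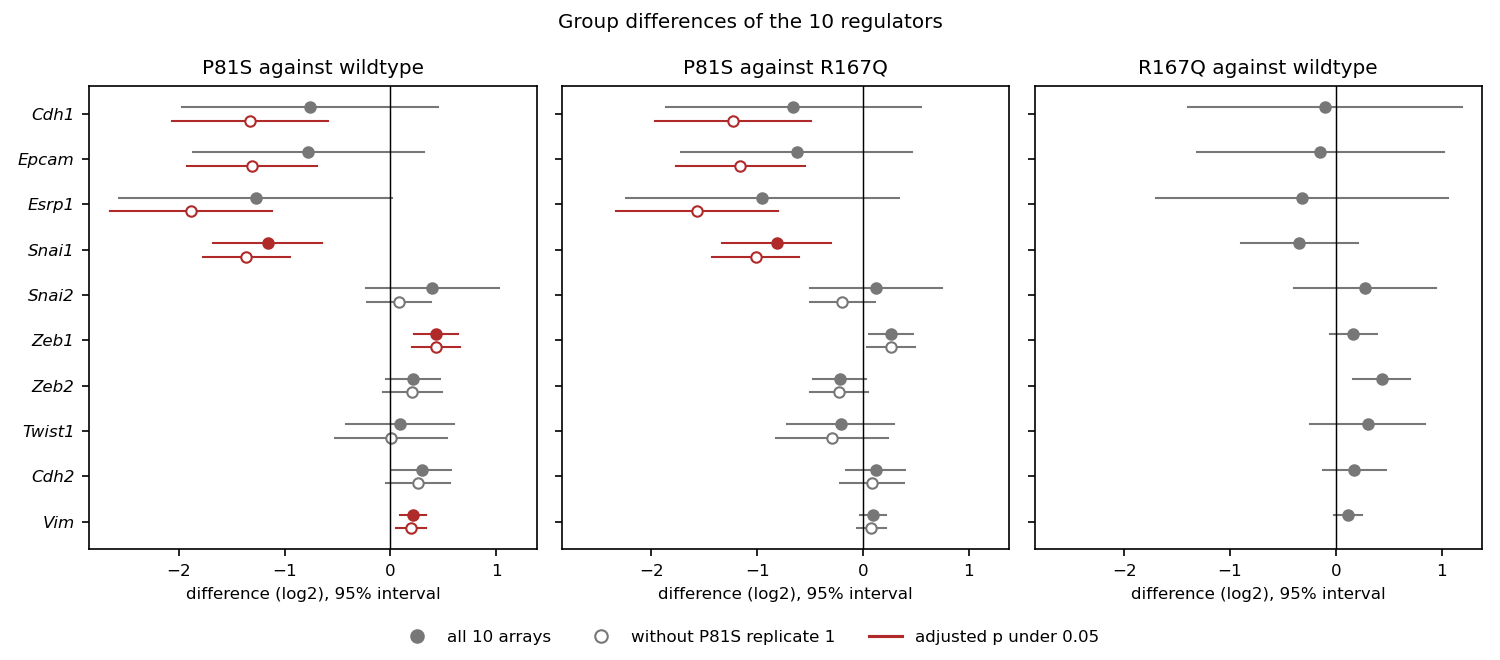
Differences between groups (log2, horizontal axis, with 95% intervals) for the 10 members in the 3 comparisons; filled points use all 10 arrays, open points leave out P81S replicate 1, and red marks an adjusted p under 0.05. Snai1 is called in both P81S comparisons, Cdh1, Epcam and Esrp1 are called only among the open points, and no member is called in R167Q against wildtype.

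Differences between R167Q and wildtype tumours were not resolved in these genes. With limma, 0 of 10 members were called, where 0.0903% of all genes were (0.0638% higher and 0.0266% lower). At an unadjusted p under 0.05 there was 1 member, Zeb2, and 9.73% of all genes. Zeb2 was 0.43 ± 0.12 above wildtype (1.35-fold, unadjusted p = 0.004697, adjusted p = 0.3251), which fails the correction although each R167Q tumour was above each wildtype tumour. The groups did not overlap for 3 members, Snai2, Zeb2 and Vim, against 19.3% of all genes. Snai2 was 0.28 above wildtype (adjusted p = 0.821) and Vim 0.12 (adjusted p = 0.5618). The intervals of the epithelial genes were wide, -1.39 to 1.19 for Cdh1, -1.32 to 1.02 for Epcam and -1.70 to 1.06 for Esrp1, in a model whose shared spread includes the P81S tumours. Without P81S replicate 1 the differences were the same and the intervals narrower, -0.84 to 0.64 for Cdh1, -0.76 to 0.46 for Epcam and -1.09 to 0.44 for Esrp1. The member median was 0.14 and that of all genes -0.02.

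Between the mutants, Snai1 was the only member called, in a comparison that shares its P81S tumours with the one above. It was 0.82 lower in P81S than in R167Q, a difference of -0.82 ± 0.23 (1.76-fold, adjusted p = 0.02884). That is 1 of 10 members against 22.5% of all genes, with 0 higher (12.4% of genes) and 1 lower (10.1%), and a share below the background. The call rested on few tumours: without P81S replicate 2, 3 or 4 the adjusted p was 0.06257, 0.05157 and 0.06392, and without R167Q replicate 1 or 2 it was 0.1322 and 0.05675. The mutants did not overlap for 3 members, Snai1, Zeb1 and Zeb2, against 30.7% of all genes. Zeb1 was 0.27 ± 0.09 higher in P81S (adjusted p = 0.065), and without R167Q replicate 2 it was 0.33 higher and called (adjusted p = 0.047). Zeb2 differed by -0.22 ± 0.11 (adjusted p = 0.2073).

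Once P81S replicate 1 was left out, 4 of 10 members were called lower in P81S than in R167Q and 0 higher, where 26.1% of all genes were called, 14.2% higher and 11.9% lower. They were Cdh1 (-1.23, adjusted p = 0.02075), Epcam (-1.16, adjusted p = 0.01125), Esrp1 (-1.57, adjusted p = 0.007897) and Snai1 (-1.02, adjusted p = 0.003082). With all arrays Cdh1 was at -0.66 (interval -1.87 to 0.55), Epcam at -0.63 (-1.72 to 0.47) and Esrp1 at -0.95 (-2.24 to 0.34). As against wildtype, the calls on the epithelial members came with the removal of the array that was highest in them.

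The rest of the pathway was followed through 5 lists of genes, given for P81S against wildtype, where 17.2% of all genes were called higher and 17.5% lower. Among 25 epithelial junction genes, 1 was called higher, Cxadr, a tight junction adhesion protein and virus receptor that neurons also make, and 1 lower, Pkp2, a plaque protein of desmosomes, so 2 of 25 were called where 34.7% of all genes were. Cxadr rose by 0.93 ± 0.11 (adjusted p = 0.0001335) and Pkp2 was at -1.69 ± 0.25 (3.22-fold lower, adjusted p = 0.0004759), and both were called whichever of the 10 arrays was left out. The junction scaffold gene Tjp1 was at -0.40 ± 0.14 (adjusted p = 0.05219) and just missed the threshold. The list's median difference was 0.06 and that of all genes 0.01. Without P81S replicate 1, 7 genes were called lower, Cldn4, Tjp1, F11r, Dsg2, Dsc2, Pkp2 and Ctnna1, where 18.6% of all genes were, and 1 higher, again Cxadr. Replicate 1 was the highest array in 19 of these 25 genes, and in 15.9% of all genes.

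Of 18 regulators of epithelial identity, 1 was called lower and 0 higher. Grhl3, a grainyhead factor of the epidermis, was at -1.04 ± 0.37 (2.06-fold lower, adjusted p = 0.0496), and the call was kept without P81S replicate 1 or wildtype replicate 2 and lost without any of the other 8 arrays. Its paralogue Grhl2, which activates Cdh1, was at -0.45 ± 0.41 (adjusted p = 0.4446). Esrp2, the paralogue of Esrp1, was at 0.03 ± 0.43 (adjusted p = 0.9714) and Ovol2, a repressor of Zeb1, at -0.05 ± 0.20 (adjusted p = 0.8734). Without P81S replicate 1, 8 genes were called lower, Grhl2, Grhl3, Elf3, Spint1, St14, Prss8, Cdh3 and Lsr. The protease inhibitor gene Spint1 had the smallest p among them, at -1.72 ± 0.23 (3.29-fold lower, adjusted p = 0.0002941), against -1.12 ± 0.53 (adjusted p = 0.1288) with all arrays. Replicate 1 was the highest array in 16 of these 18 genes (15.9% of all genes) and replicate 4 the lowest in 11 (16.2% of all genes).

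Of 11 other transcription factors of the transition, 3 were called higher and 0 lower, a share near the 34.7% of all genes called. Prrx1, a homeobox factor of limb and skull mesenchyme, rose by 0.76 ± 0.20 (adjusted p = 0.01176), Sox9, a factor of cartilage, neural crest and glia, by 0.50 ± 0.13 (adjusted p = 0.01258) and Tcf4, a helix-loop-helix partner also made in neurons, by 0.36 ± 0.09 (adjusted p = 0.009257). The arrays of P81S and wildtype did not overlap for any of these 3, nor for 40.6% of all genes. As the 3 were picked by their p, this adds no support. Without wildtype replicate 2, Tcf4 alone was called higher, and Lbx1 was called lower without R167Q replicate 2. Tcf3, the E2A factor, was at -0.50 ± 0.19 (adjusted p = 0.05857), and it was called lower without P81S replicate 2 and, without P81S replicate 1, at -0.64 ± 0.17 (adjusted p = 0.01227).

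Of 18 mesenchymal genes, 2 were called higher and 0 lower. Thy1, a surface glycoprotein of fibroblasts and neurons, rose by 1.55 ± 0.31 (2.93-fold, adjusted p = 0.002907) and Cdh11, the cadherin of osteoblasts and mesenchyme, by 0.80 ± 0.15 (1.75-fold, adjusted p = 0.001893). Fn1, fibronectin, was at -0.45 ± 0.29 (adjusted p = 0.281), and it was called lower without P81S replicate 1, at -0.76 ± 0.17 (adjusted p = 0.005475), with Mmp2 and Lum. Replicate 1 was the highest array in 14 of these 18 genes, and the list's median difference was 0.10 with it and -0.24 without it. Without P81S replicate 2, whose mesenchymal mean of 8.93 was the lowest of the arrays, 6 genes were called higher and 0 lower. Without replicate 4 the count was 3 higher. The mean of the list was 9.02 to 9.52 in wildtype and 8.93 to 10.37 in P81S.

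TGF-beta signals are a known trigger of the transition. Of 14 genes of that pathway, 2 ligand genes were called higher, Tgfb3 (0.99 ± 0.20, adjusted p = 0.00255) and Tgfb2 (0.63 ± 0.21, adjusted p = 0.03876), and 1 lower, the ubiquitin ligase gene Smurf2 (-0.32 ± 0.09, adjusted p = 0.01984). Tgfb1 was at 0.19 ± 0.29 (adjusted p = 0.6674). Tgfb3 was called whichever array was left out, and Tgfb2 was not called without P81S replicate 1, 2 or 4, any wildtype replicate or R167Q replicate 1. Without wildtype replicate 1 or 3 Smurf2 was not called either. The counts without P81S replicate 1 were 1 higher and 3 lower, the latter Tgfbr3, Smad3 and Smurf2.

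**Figure D4:**
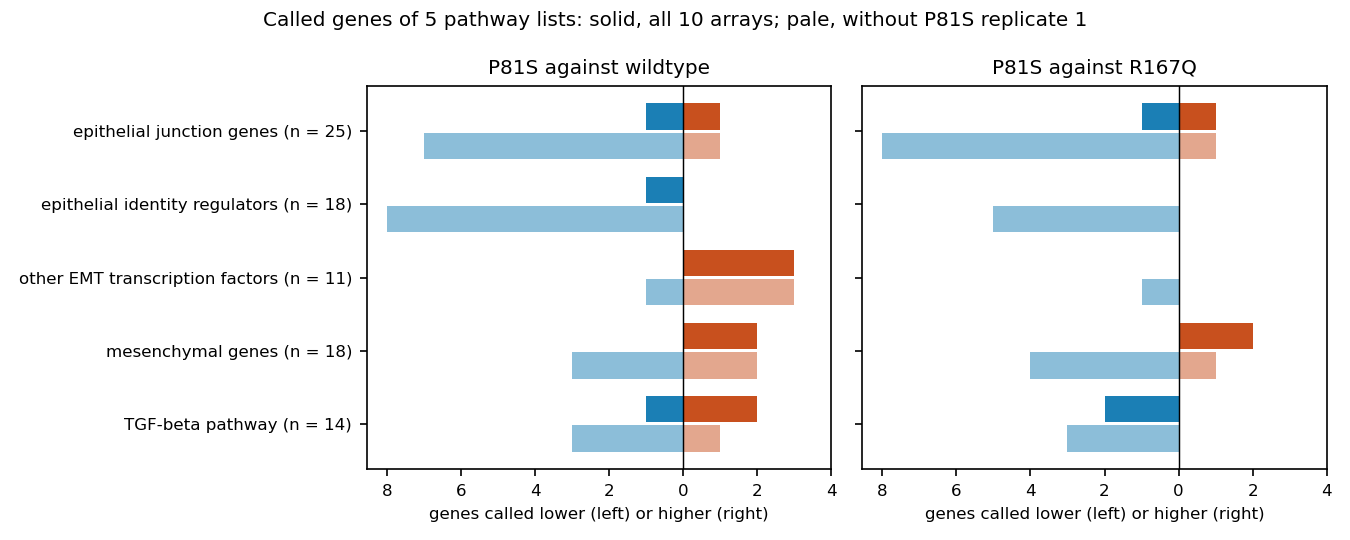
Number of genes called lower (to the left) and higher (to the right) in P81S against wildtype and against R167Q in 5 pathway lists, with the number measured beside each name; solid bars use all 10 arrays and pale bars leave out P81S replicate 1. In both comparisons the pale bars add lower genes in the epithelial lists, 7 and 8 against wildtype where solid bars show 1 and 1. They also add lower genes in each of the other lists. In the mesenchymal list they show 3 against wildtype and 4 against R167Q, where solid bars show 0.

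Against R167Q, P81S had 1 junction gene called higher, Cxadr, and 1 lower, Pkp2, with 0 of the identity regulators and 0 of the other transcription factors called. Thy1 (1.18, adjusted p = 0.02089) and Cdh11 (0.50, adjusted p = 0.03459) were called higher again, and Smad3 (-0.56, adjusted p = 0.02031) and Smurf2 (-0.37, adjusted p = 0.01528) lower. Thy1 was not called without P81S replicate 4 or R167Q replicate 1 or 2, and Cdh11 was kept without P81S replicate 4, wildtype replicate 1 or 3, or R167Q replicate 2 and lost without any of the other 6 arrays. Smad3 was not called without P81S replicate 3 or R167Q replicate 1 or 2. The counts lower without P81S replicate 1 were 8 of 25 junction genes and 5 of 18 identity regulators, with 1 and 0 higher. Of all genes, 11.9% were then called lower and 14.2% higher. Without R167Q replicate 1, 0 of the mesenchymal genes and 0 of the TGF-beta genes were called. In R167Q against wildtype, limma called 0 genes in each of the 5 lists. At an unadjusted p under 0.05 there were 0 junction genes, 0 identity regulators, 2 other transcription factors, 1 mesenchymal gene and 1 TGF-beta gene. Of all genes, 9.73% were under that threshold.

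The probe sets of the 5 microRNA genes shown above read 3.55 to 5.47 log2 over the arrays. They are outside the rule for named genes and were chosen with the data in view. These arrays read RNA primed from poly(A) tails, so the values do not measure the mature microRNAs. Mir205 was called lower in P81S than in wildtype, at -0.48 ± 0.16 (adjusted p = 0.03522), with 4.44, 4.48, 4.45 and 4.04 in P81S, 4.71, 4.63 and 5.15 in wildtype and 4.49, 4.65 and 4.38 in R167Q. Each P81S tumour was below each wildtype tumour, and the call was lost without P81S replicate 4 (-0.38, adjusted p = 0.08642) or wildtype replicate 3 (-0.32, adjusted p = 0.1474). Mir200a, Mir200b, Mir200c and Mir141 were not called in any of the 3 comparisons. For Mir200b, whose product shares its seed with that of Mir200c, the difference from wildtype was 0.33 ± 0.17 (adjusted p = 0.1774), and for Mir200c it was -0.18 ± 0.14 (adjusted p = 0.3505).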

How the data were processed

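Total RNA from 10 frozen teratomas was copied from an oligo(dT) primer and labelled with biotin for Affymetrix arrays, per the labels' protocols. The authors deposited 1 log2 expression value per probe set and array, for 35556 probe sets. RMA and Partek are named in the submitters' processing notes, without version or role. Signal over background is unknown, the number of arrays limits the precision, and folds are relative to the other transcripts of an array. Probe sets naming 1 gene (21218) gave 18820 genes, each taken from its probe set of highest mean; 1881 naming several genes were not tested. Entrez numbers matched for 21185 in a RefSeq table of assembly GRCm38.p6. All 10 value columns were used.

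One limma 3.58.1 model (R 4.3.3, statmod 1.5.0) of 3 group means was fitted, with a variance trend (residual degrees of freedom 7, prior 3.85). Tests were two-sided, with Benjamini-Hochberg adjustment over all genes, and the script was tested on simulated data. The members, lists, rule and alternatives were chosen with earlier results of these data known. The rule for named genes took all members, up to 3 genes a list and comparison by smallest p, Esrp2, Grhl2, Ovol2, Fn1 and Tgfb1, and the 3 genes most like Cdh1, Epcam, Cdh2, Zeb2 and Vim; other genes are named to complete a count. Some genes of the lists are not reported here. Alternatives were other normalizations, no dim genes, averaged or all probe sets, array weights, only the compared groups, a robust or trendless variance, the replicate number or clone pairs as a block, no chromosomes 8, 11 and Y, and arrays left out.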

Additional observations from a re-analysis of the deposited data

Results flagged for a closer look

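Within the 4 P81S tumours, the gap between the most extreme tumour and its neighbour was set against the range of the group (Dixon's ratio) for 60 genes and list means, and 3 exceeded the 95% critical value; chance flags about 1 in 20. Snai2 had a ratio of 0.939, as P81S replicate 1 read 8.27 and the next tumour 7.06. Mir205 had a ratio of 0.910, with P81S replicate 4 at 4.04 and the next at 4.44. Mir200c had a ratio of 0.888, with replicate 4 at 3.97 and the next at 4.41.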

How the results depend on the processing

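Over 26 alternative settings, 768 differences of single members were recomputed: 0 reversed among calls, 12 lost their call, 21 gained one and 14 that were uncalled in either setting turned sign. Leaving out dim genes, those with a mean below the median gene's, removed Snai1, Snai2 and Twist1 from the test, and the members called there were Vim and Zeb1 against wildtype and Zeb1 against R167Q. Zeb1 stayed called in P81S against wildtype in each of the 26 settings and Snai1 in each of the 25 that tested it. Vim lost that call without the variance trend (adjusted p = 0.08523), with the replicate block (0.05897), without wildtype replicate 3 (0.05433) and without P81S replicates 3 and 4 (0.05362). In P81S against wildtype the count of called members, 3, became 6 with array weights and 6 without P81S replicates 1 and 2, and it ran from 2 (without wildtype replicate 3) to 6 (without P81S replicate 1) when single arrays were left out. In P81S against R167Q the count of 1 became 2 with array weights, 2 with clone pairs 1+3 and 2+4, 4 without P81S replicates 1 and 2, and 0 with only the compared groups, with the replicate block or without P81S replicates 3 and 4, and it ran from 0 to 4 over single arrays left out. In R167Q against wildtype 0 members were called in each of these settings, while the 17 genes called of all tested became 3 without dim genes, 28 with all probe sets, 42 with array weights, 26 with only the compared groups, 7 without chromosomes 8, 11 and Y, and 5 to 21 over single arrays left out. In P81S against R167Q, 4234 genes were called of all tested, 2419 without P81S replicates 3 and 4, and 2328 (without R167Q replicate 1) to 4916 (without P81S replicate 1) over single arrays left out. The causes were not tested.

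The replicate numbers were not taken to pair the tumours: of 9 pairs with the same number in different groups, 2 had deviations that correlated above 0.1 (range -0.28 to 0.21), and 2 correlated best with their own number. With the replicate block, Cdh2 was called in P81S against wildtype (0.36, adjusted p = 0.01884), Vim was not, and Snai1 was not called in P81S against R167Q (-0.66, adjusted p = 0.0672). Without P81S replicates 3 and 4, Cdh1 was at 0.05 against wildtype and not called. The number of arrays and an unknown signal over background limit what can be seen.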
